A study of Williopsis jadinii with 8 samples.

Results

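A group of 52 transcripts of the yeast Candida utilis is described here. They were chosen by detection: the scanner flagged them well above background on all 5 arrays of cells grown on xylose and on none of the 3 arrays of cells grown on glucose, and the recombinant strain lay less than 1 log2 unit below the wild type on xylose. The array held 8604 design identifiers (design IDs, the array's own names for its transcripts), each with 1 or 2 probes, and the 52 are 0.604% of them. The choice used the levels and flags of all 8 arrays, so differences between the groups are given as a description of the chosen transcripts. Calls from a fit over all tested design IDs are printed for them, but no conclusion is drawn from these.

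Candida utilis is an industrial yeast that can take up xylose, the pentose sugar of plant hemicellulose. In yeasts that assimilate xylose, xylose reductase and xylitol dehydrogenase turn it into xylulose through xylitol, and xylulokinase passes it on to the pentose phosphate pathway. Many yeasts keep genes for other carbon sources nearly silent while glucose is present and transcribe them once it is gone. A transcript that is undetected on glucose and detected on xylose is the pattern such genes would give. The files and the gene table used here do not pair any design ID with a gene name, so no role can be given to the 52 and no pathway list could be applied to them.

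The arrays fall into 3 groups, and each holds 1 RNA sample labelled in a single colour. The series' design text calls the replicates independent experiments. Strain TMS174, which the labels call xylose-fermenting and the series title recombinant, grew on xylose for 24 h (n = 2); the labels name no genotype for it. Its comparison is the wild type NBRC0988 (WT), grown on xylose for 24 h (n = 3) or on glucose for 10.5 h (n = 3). All cultures came from glucose precultures of 3 days and grew semi-aerobically at 30 °C in 50 ml of medium with yeast extract and peptone, from an OD600 of 0.1. Xylose was given at 50 g/L. The labels give 20 g/L for glucose, but the name of that medium carries the number of the 50 g/L one, so the amount of sugar may differ too. Medium and sampling time differ together between the WT groups. Both TMS174 arrays lay on slide 2 and all WT arrays on slide 1, which means that an effect of the strain and one of the slide cannot be told apart. In RNA from whole cultures, a larger share of cells with a transcript and more transcript per cell cannot be told apart either.

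Of the 8604 design IDs, 954 were on (well above background by at least 1 probe) in no glucose array. Of these, 191 were on in all 3 WT xylose arrays, and 80 in the TMS174 arrays as well. The limit on the strain difference divided the 80 into the 52 described here and 28 that were lower in TMS174 by at least 1 log2 unit. The mirror pattern, on in all glucose arrays and in no xylose array of either strain, was met by 9 design IDs. The arrays also differed in how much they detected overall: 7575 and 7543 design IDs were on in the TMS174 arrays, 7747, 7775 and 8174 in the WT xylose arrays, and 7552, 7400 and 7557 in the WT glucose arrays. WT xylose replicate 3 stood apart with the highest number. The part of these array differences in the count of 52 was not tested.

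Nearly all of the 52 were dim. Levels are given as log2 of the processed signal relative to the array's 75th percentile. The median level of the 52 was -8.23 and -8.16 on the TMS174 arrays, -7.77, -8.07 and -7.68 on the WT xylose arrays, and -9.86, -9.71 and -9.48 on the WT glucose arrays. Over all design IDs the group means of the array medians were -2.09 in TMS174, -2.02 in WT on xylose and -2.08 in WT on glucose. The median member thus stood at the 16.5th percentile of design IDs in TMS174 and at the 15.7th in WT on xylose. The brightest member, cut01g0010758, stood at the 42.4th percentile in TMS174 and at the 36.6th in WT on xylose. No other member had a mean level above -6.27 in TMS174 or above -6.14 in WT on xylose.

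**Figure D1:**
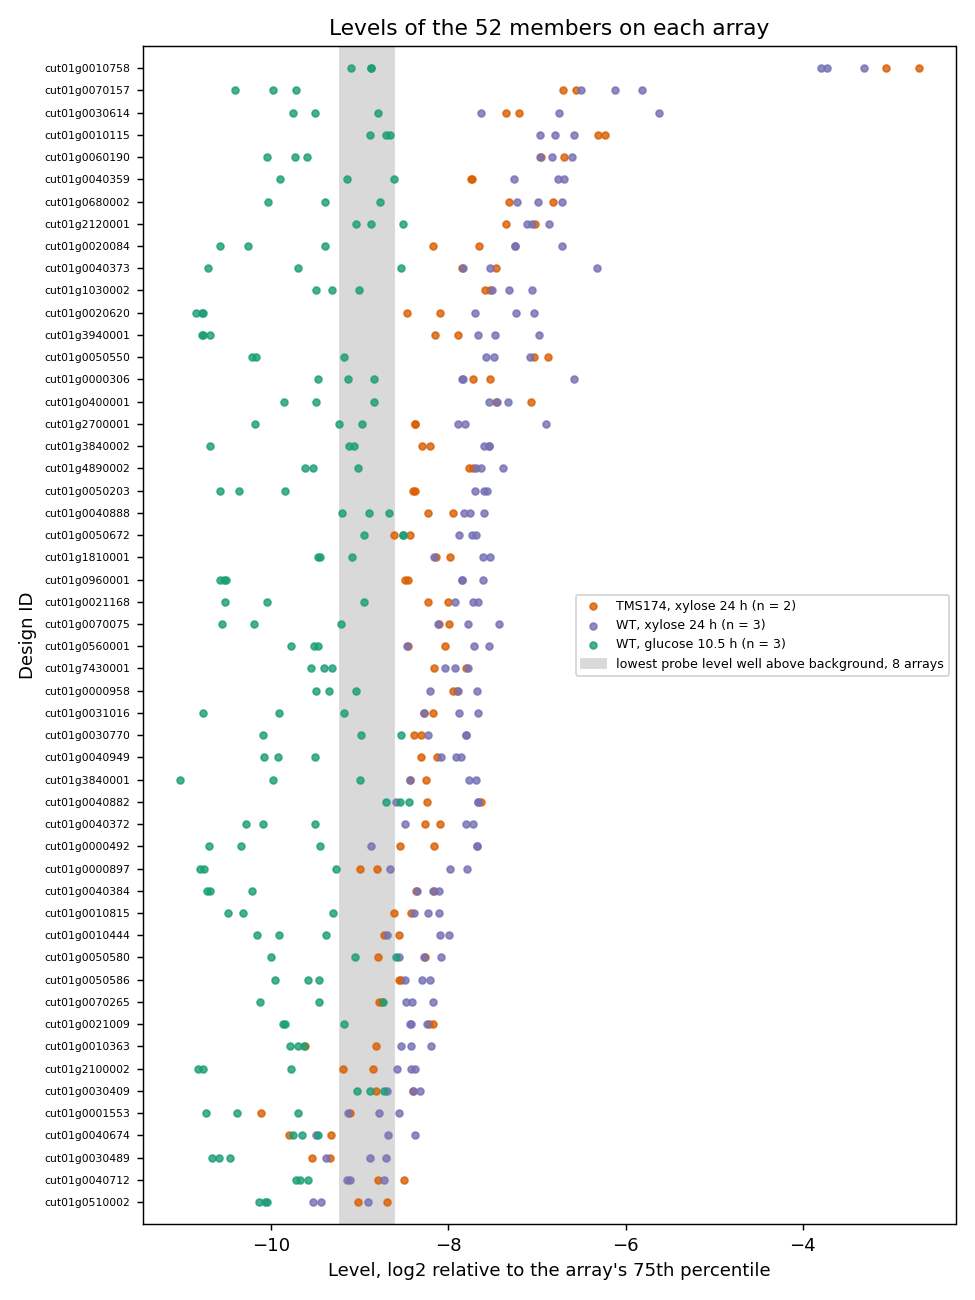
Level of each of the 52 transcripts (rows, brightest in WT on xylose at the top) on each array (points, log2 relative to the array's 75th percentile), for TMS174 and WT on xylose and WT on glucose. The grey band spans the lowest level that a probe well above background had on each of the 8 arrays, from -9.22 to -8.61. Apart from cut01g0010758 at the top right, the xylose points lie within a few log2 units of that band.

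Before background subtraction the same picture appears in the scanner's own units. The median spot intensity of the members' 83 probes was 45 and 44 on the TMS174 arrays, 48, 46 and 49.5 on the WT xylose arrays, and 37, 35 and 35 on the WT glucose arrays. The 364 design IDs that were on in no array had probe medians of 34 and 33 in TMS174, 34, 34 and 34.5 in WT on xylose, and 34, 32 and 32 in WT on glucose. The 77 negative-control spots had medians of 31 and 30 in TMS174, 29, 29 and 28.5 in WT on xylose, and 30.5, 29 and 28.5 in WT on glucose. On every xylose array the members' median was thus above both of these sets, by 14 to 21 units over the negative controls, against 6 to 6.5 units on the glucose arrays. The members were chosen by their flags on these arrays, and the 364 by having none. The choice therefore favours this order, and nothing is read from it.

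**Figure D2:**
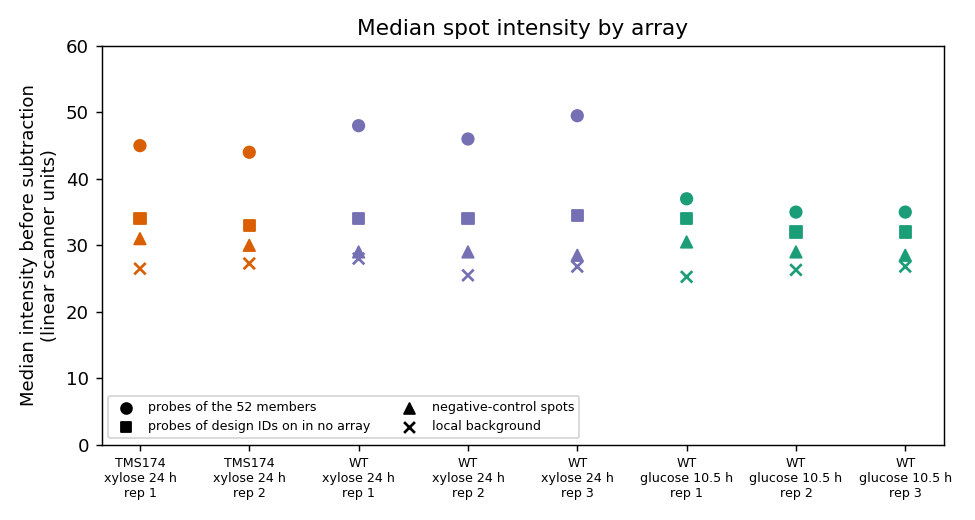
Median intensity before background subtraction on each array (linear scanner units), for probes of the 52 members, probes of the 364 design IDs on in no array, the 77 negative-control spots and the local background. The members' medians are 44 to 49.5 on the xylose arrays and 35 to 37 on the glucose arrays, while the other 3 sets stay between 25.3 and 34.5 on all arrays.

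The word "on" holds for these transcripts only in the sense of that flag. A looser flag of the same software, positive and significant against the local background, was set for 46, 44 and 45 of the 52 on the 3 glucose arrays, and for 38 of them on all 3. Over all design IDs it was set for 95.3%, 94.2% and 95.3% on these arrays, and for 7934 of the 8604 on all 3. Of the 954 design IDs off in glucose, 307 had it on all 3. The members thus passed it more often than the 954 and less often than design IDs in general. On the same arrays it was set for 36.3%, 29.9% and 35.2% of the 364 design IDs on in no array and for 0 to 1.30% of the negative-control spots. On the xylose arrays it was set for 64.3%, 64.6% and 84.9% of the 364 in WT and for 42.3% and 36.5% in TMS174. The stricter flag was set for 2 and 1 of the 77 negative-control spots on WT xylose replicates 2 and 3 and for none on the other arrays. Any part of this in the choice of members was not tested. Only cut01g0020620 had the looser flag on none of the glucose arrays. By that flag most of the 52 had a signal on glucose that lay under the stricter limit, so they are not described here as absent from glucose. In the WT, all 52 had a higher mean on xylose than on glucose (50 under quantile normalization and 49 under normexp), which the choice of members favours. Of the 954 off in glucose, 818 were higher too. The members' log2 difference was 0.41 to 5.34 with a median of 1.94, against 0.94 over the 954 and 0.06 over all design IDs. In TMS174 relative to WT on glucose it was 0.07 to 6.07 with a median of 1.52, against -0.15 over the 954 and -0.08 over all design IDs.

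For 45 of the 52, the lowest of the 5 xylose arrays was above the highest glucose array, a pattern that 28.1% of all design IDs showed. Since the members had to differ in their flags, nothing is read from that contrast. The other 7, with mean levels between -8.85 and -7.76 in WT on xylose, overlapped between the media. In the limma fit over 7966 tested design IDs, 43 of the 52 were called higher in TMS174 than in WT on glucose (29.6% of all tested, with 63% called in either direction) and 49 higher in WT on xylose than on glucose (34.7% of all tested, with 69% in either direction), at an adjusted p of 0.05. The rule used both contrasts, and these counts are given only beside their background. Under normexp background correction, added after seeing the data, 26 were called higher for TMS174 and 27 for WT on xylose, beside 2402 and 2514 called higher over all tested design IDs.

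A lower bound on each fold sets the xylose mean against the glucose mean, with each glucose array raised to the lowest level that a probe well above background had there. The bound of WT on xylose over WT on glucose was above 1 for 47 of the 52, above 2-fold for 20, above 4-fold for 3 and above 8-fold for 1, with a median of 1.75-fold. For TMS174 over WT on glucose it was above 1 for 44, above 2-fold for 11, above 4-fold for 3 and above 8-fold for 1, with a median of 1.39-fold. No fold is given for members whose bound is under 1. All bounds rest on the scaling to the 75th percentile, and the spread of the means is not part of them.

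One transcript stood far above the rest. The level of cut01g0010758 was -2.69 and -3.06 on the TMS174 arrays, -3.73, -3.31 and -3.79 on the WT xylose arrays, and -9.09, -8.88 and -8.87 on the WT glucose arrays. Both TMS174 arrays were above all WT xylose arrays, and the lowest of the 5 was 5.08 log2 units above the highest glucose array. Relative to WT on glucose its level was at least 56.4-fold higher in TMS174 and at least 34.0-fold higher in WT on xylose under the scaling to the 75th percentile. Under normexp the log2 difference of WT on xylose over WT on glucose was 2.06, against 5.34 here. The difference between the strains on xylose was 0.73 (log2, TMS174 minus WT, SE 0.18), the highest of the 52, and was 0.82 under quantile normalization, 0.60 under normexp and 0.18 under scaling to spike-in control spots. Its 2 probes had similar strain differences, 0.74 and 0.72.

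The design IDs on either side of cut01g0010758 in the array's numbering were on in all 8 arrays and hardly differed between the media. The level of cut01g0010757 was -3.27 ± 0.01 (SD, n = 2) in TMS174, -3.33 ± 0.05 (SD, n = 3) in WT on xylose and -3.33 ± 0.05 (SD, n = 3) in WT on glucose. That of cut01g0010759 was -1.50 ± 0.06 (SD, n = 2) in TMS174, -1.53 ± 0.08 (SD, n = 3) in WT on xylose and -1.64 ± 0.24 (SD, n = 3) in WT on glucose. Neither had a pattern like that of cut01g0010758; these 2 were chosen for display after the values were seen.

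The transcript with the next largest bound in WT was much dimmer. The level of cut01g0070157 was -6.56 and -6.71 in TMS174, -5.81, -6.50 and -6.11 in WT on xylose and -10.4, -9.72 and -9.98 in WT on glucose. The bound over WT on glucose was 4.17-fold in TMS174 and 5.87-fold in WT on xylose, and both TMS174 arrays lay just below the lowest WT xylose array. Its strain difference was -0.49 (SE 0.25), and was -0.18 under normexp and -1.05 under spike-in scaling.

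The order of the strains was the opposite, under the scaling to the 75th percentile, for cut01g0010115, which has 1 probe. Its level was -6.31 and -6.23 in TMS174, -6.58, -6.80 and -6.97 in WT on xylose and -8.70, -8.66 and -8.88 in WT on glucose. Both TMS174 arrays were above all WT xylose arrays, with a strain difference of 0.51 (SE 0.13). That difference was 0.17 under normexp and -0.04 under spike-in scaling, so its direction depends on the scaling. The bound over WT on glucose was 5.24-fold in TMS174 and 3.67-fold in WT on xylose.

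Of the 52, cut01g0030614 had the widest spread over the WT xylose arrays. Its level was -7.20 and -7.35 in TMS174, -7.62, -5.63 and -6.75 in WT on xylose and -9.75, -8.80 and -9.51 in WT on glucose. The WT xylose arrays enclosed both TMS174 arrays, so the strain difference of -0.61 (SE 0.55) lay within their spread; it was -0.19 under normexp and -1.17 under spike-in scaling. The bound over glucose was 2.67-fold in TMS174 and 4.08-fold in WT on xylose. The transcript cut01g0040373 had the second widest spread in WT on xylose, at -7.83, -6.32 and -7.53, against -7.85 and -7.46 in TMS174; its glucose arrays, at -10.7, -8.53 and -9.69, spread more widely than those of cut01g0030614.

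For cut01g0060190 the strains differed by less than their spread. Its level was -6.96 and -6.70 in TMS174, -6.83, -6.60 and -6.96 in WT on xylose, and -10.0, -9.73 and -9.59 in WT on glucose. The strain difference was -0.03 (SE 0.17), 0.20 under quantile normalization and -0.58 under spike-in scaling, and the bound over glucose was 3.65-fold in TMS174 and 3.73-fold in WT on xylose. Both of its probes were on in all xylose arrays, with strain differences of -0.01 and -0.06.

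The ID cut01g0060190 lies in a stretch of the numbering where several neighbours had higher levels on xylose in the WT but a lower level in TMS174; the stretch was chosen after the values were seen. The next ID, cut01g0060191, was at -7.42 ± 0.08 (SD, n = 2) in TMS174, -5.60 ± 0.12 (SD, n = 3) in WT on xylose and -10.6 ± 0.09 (SD, n = 3) in WT on glucose. The level of cut01g0060192 was -9.78 ± 0.40 in TMS174, -7.46 ± 0.13 in WT on xylose and -10.6 ± 0.02 in WT on glucose (SD, same n). That of cut01g0060195 was -0.47 ± 0.72 in TMS174, 3.71 ± 0.13 in WT on xylose and -10.7 ± 0.28 in WT on glucose (SD, same n). The strain differences of these 3 were -1.82, -2.32 and -4.18. The stretch was not unbroken: between them, cut01g0060193 was on in no array and cut01g0060194 in 1 xylose array only. After them, cut01g0060196 was on in all glucose arrays as well as all xylose arrays. On the other side of cut01g0060190, cut01g0060189 was on in all 8 arrays, with a difference between the media in WT of 0.43. No source used here says whether the numbers follow the order of genes on the genome.

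The rule was also applied again with 1 array left out at a time, and detection in that array was counted. The 52 themselves were chosen on all arrays, so these counts are not an independent check of them. When the rule was applied without 1 xylose array, most of the transcripts it chose were on in the array left out. Without TMS174 replicate 1 it chose 66, of which 55 (83.3%) were on in that array, where 14.2% of the 954 design IDs off in glucose were on. Without TMS174 replicate 2 it chose 70, of which 52 (74.3%) were on in it, against 11.7% of the 954. For WT xylose replicates 1, 2 and 3 the numbers were 53 of 58 (91.4%), 47 of 48 (97.9%) and 56 of 56 (100%), against 27.7%, 27.7% and 59.4% of the 954. The last background share shows how many more dim transcripts passed the flag on WT xylose replicate 3 than on the other xylose arrays. The 954 include the 364 design IDs on in no array, whereas the chosen transcripts were already on in the other xylose arrays. A higher share among the chosen was therefore built into the comparison, and nothing is read from the gap.

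The glucose arrays were left out in the same way, with no background share computed for them. Here a transcript that is on in the array left out breaks the rule. Without WT glucose replicate 1 the rule chose 71 transcripts, of which 19 (26.8%) were on in that array; without replicate 3 it chose 67, of which 15 (22.4%) were on. Without replicate 2, the glucose array with the fewest detected transcripts, it chose 55, of which 3 (5.45%) were on. Allowing 1 glucose array to be on gave 89 transcripts. Membership of the 52 thus depends on which glucose and TMS174 arrays are counted.

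The strains on xylose were close to each other for most of the 52, within the limit that the rule set. Across the 52, mean levels in TMS174 and in WT on xylose had a Pearson's r of 0.93, and of 0.86 without cut01g0010758, a description across transcripts measured on the same arrays. The strain difference (TMS174 minus WT) ran from -0.96 to 0.73, with quartiles of -0.62 and -0.13 and a median of -0.29; the median over all 8604 design IDs was -0.07. It was below 0 for 44 and above 0 for 8 of the 52, against 58.6% of all design IDs below 0. For 35 members it was within 0.5 of 0. The rule removed transcripts below -1 and none above, which by itself shapes these values.

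The direction of that small difference depended on the scaling. Under quantile normalization 37 of the 52 were higher in TMS174 (median 0.18), and under normexp 32 were (median 0.021). Under median scaling 41 were lower (median -0.22), and under spike-in scaling 51 were lower (median -0.84, where the median of all design IDs was -0.62, so that the members lay 0.22 below it). No common direction between the strains can therefore be given for the 52 as a set.

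**Figure D3:**
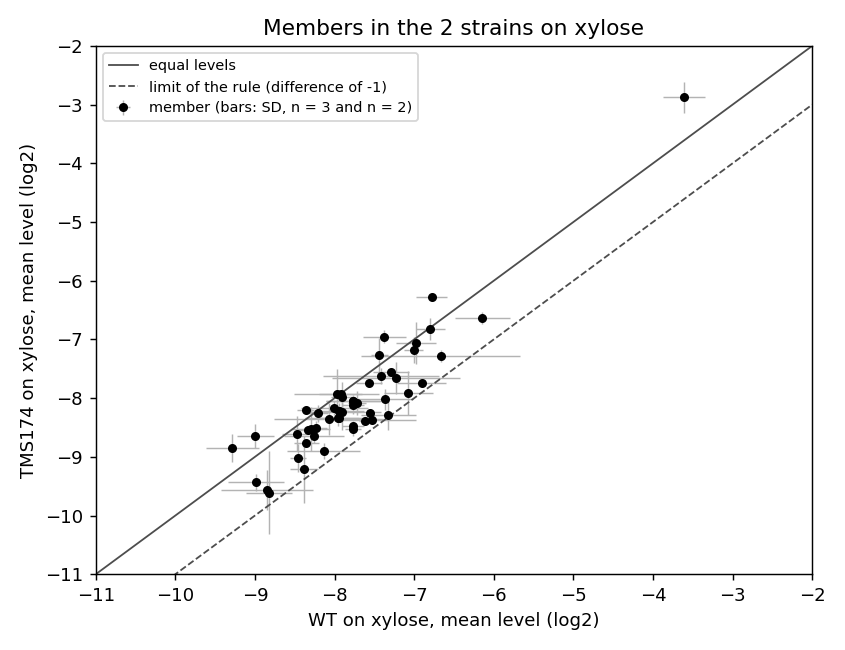
Mean level of each of the 52 transcripts in TMS174 (vertical) against WT (horizontal), both on xylose, in log2 relative to the 75th percentile, with SD bars (n = 2 and n = 3). The solid line marks equal levels and the dashed line the limit of the rule; most points lie between the 2 lines, and 8 lie above the solid one.

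**Figure D4:**
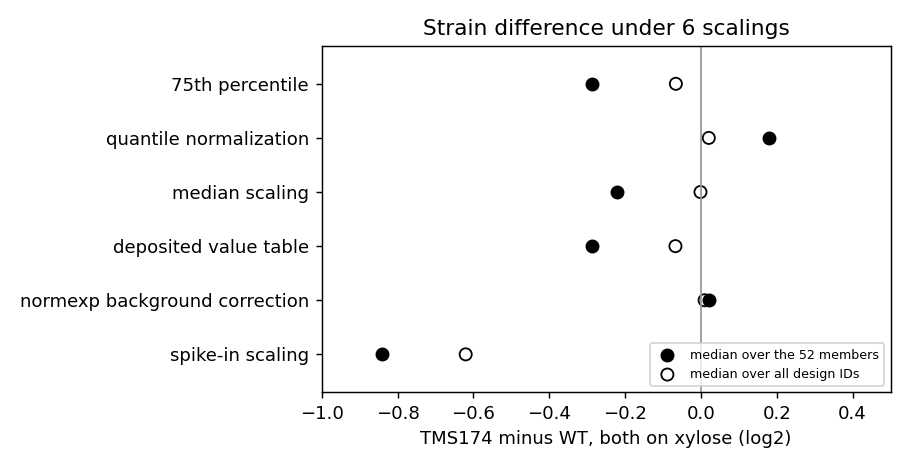
Median strain difference on xylose (TMS174 minus WT, log2) under 6 ways of scaling the arrays, over the 52 members (filled) and over all 8604 design IDs (open). The members' median is below 0 under 4 of them, between -0.84 and -0.22, and above 0 under quantile normalization (0.18) and normexp (0.021).

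Array by array, the strain ranges overlapped for 26 of the 52. Both TMS174 arrays were below all WT xylose arrays for 22, a pattern shown by 34.9% of all design IDs, and above all of them for 4, against 24.2%. In the limma fit 7 of the 52 were called between the strains (17.5% of all tested were), 2 of them higher in TMS174 (7.32% of all tested) and 5 lower (10.2%). The rule used this contrast, so nothing is read from these counts. They also changed with the arrays counted, as did the calls over all tested design IDs. Leaving out WT xylose replicate 1, 2 or 3 left 4, 5 or 2 calls among the members. Over all tested design IDs it left 623, 1154 or 576, against 1392 with all arrays. Quantile normalization gave 4 calls, all higher, normexp 1, higher, and spike-in scaling 34, all lower.

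The 2 called higher were cut01g0010758 and cut01g0010115. No member was called higher by limma without WT xylose replicate 3, without either TMS174 array or under spike-in scaling, so both of these calls were lost there. The 5 called lower were cut01g0020620, cut01g0050203, cut01g0050672, cut01g0960001 and cut01g0040674, the last 4 named after their values were seen. The call for cut01g0040674 rests on its brighter probe alone (-0.745), since the fit left out the dimmer one. Over both probes its strain difference was -0.711, and the strain ranges overlapped. The third of the highest strain differences was that of cut01g0510002, the dimmest member in WT on xylose. Its level was -8.69 and -9.01 in TMS174, -9.52, -9.43 and -8.90 in WT on xylose, and -10.0, -10.1 and -10.1 in WT on glucose. The TMS174 range overlapped that of WT on xylose, and only 1 of its 2 probes was on. Its strain difference of 0.43 was 1.20 under quantile normalization, 0.10 under normexp and -0.12 under spike-in scaling, so its direction depends on the scaling.

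The lowest strain differences belonged to transcripts at the edge of the rule. The level of cut01g0020620 was -8.10 and -8.46 in TMS174, -7.24, -7.70 and -7.04 in WT on xylose and -10.8, -10.8 and -10.8 in WT on glucose, so both TMS174 arrays were below all WT xylose arrays and far above the glucose ones. Its difference of -0.96 and that of cut01g2700001, -0.85, were just inside the limit of -1; for cut01g0020620 it was -0.12 under normexp and -1.51 under spike-in scaling. Just outside were cut01g0010277 at -1.01 and cut01g0070214 at -1.02.

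Those just outside looked much like those just inside. The level of cut01g0010277 was -8.89 and -8.49 in TMS174, -7.51, -7.91 and -7.62 in WT on xylose, and -9.05, -10.6 and -9.16 in WT on glucose. That of cut01g2700001, inside the limit, was -8.38 and -8.38 in TMS174, -7.81, -7.89 and -6.89 in WT on xylose, and -10.2, -8.97 and -9.23 in WT on glucose. No gap in the values separates the 52 from the 28 left out.

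Another pair with a lower level in TMS174 was cut01g0020084 and cut01g0040359. The level of cut01g0020084 was -8.18 and -7.65 in TMS174, -7.25, -7.25 and -6.72 in WT on xylose and -10.3, -10.6 and -9.39 in WT on glucose, a strain difference of -0.84 (SE 0.36). That of cut01g0040359 was -7.73 and -7.75 in TMS174, -6.76, -7.26 and -6.69 in WT on xylose and -8.61, -9.90 and -9.14 in WT on glucose, with a strain difference of -0.83 (SE 0.35). In each case both TMS174 arrays were below all WT xylose arrays, and the bound over glucose was under 2-fold in TMS174 (1.72 and 1.90) and over 3-fold in WT on xylose (3.08 and 3.38). The strain differences of cut01g0020084 and cut01g0040359 were -0.15 and -0.07 under normexp and -1.39 for each under spike-in scaling.

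Set against the 28 transcripts with the same detection but a lower level in TMS174, the 52 were dimmer in WT on xylose. The 28 had a median level of -8.61 in TMS174, -6.82 in WT on xylose and -10.1 in WT on glucose, and the 52 had -8.22, -7.84 and -9.65. The upper quartile of the 28 in WT on xylose was -1.97, above the highest of the 52, which was -3.61. The bound of WT on xylose over glucose was above 8-fold for 12 of the 28 and for 1 of the 52. Both sets were chosen on these levels, and the difference between them was not tested.

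Of the 52, 31 have 2 probes, which measure the same transcript separately, and 21 have 1. Both probes were on in all 5 xylose arrays for 11 of the 31, exactly 1 for 18, and neither by itself for 2. Because the rule needs only 1 probe at a time, the dimmer probe was not always part of the choice on xylose. It was part of the choice on glucose, where the rule required both probes to be off on every array. Its values also entered the limit on the strain difference. That dimmer probe was higher in WT on xylose than on glucose for all 31, with a median log2 difference of 1.73, against 1.59 for the brighter probe. For the 20 members without both probes on in all xylose arrays it was higher in all 20, with a median of 1.54. Most design IDs off in glucose did the same: 818 of the 954 had a higher mean level in WT on xylose than on glucose. In TMS174 the dimmer probe was higher than in WT on glucose for 28 of 31, while 392 of the 954 had a higher mean level there. For 11 of the 31 the dimmer probe was itself on in all xylose arrays, and for others it was on in some of them. The choice of members thus favours all of these counts. The 954 were not required to be on in xylose, so nothing is read from the gap to them. The difference between the strains had the same sign in both probes for 25 of 31.

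The probes of a few members disagreed. The largest gap between probes was in cut01g0030489, whose probes stood at -7.42 and -10.6 in WT on xylose; the brighter one was 2.99 higher there than in WT on glucose and the dimmer one 0.18. In cut01g0040674 the probes stood at -7.70 and -9.99, with differences of 0.97 and 0.58. The dimmer probe was on in no xylose array for 6 of the 31, these 2 and cut01g0510002 among them. The first 2 were named after their values were seen.

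**Figure D5:**
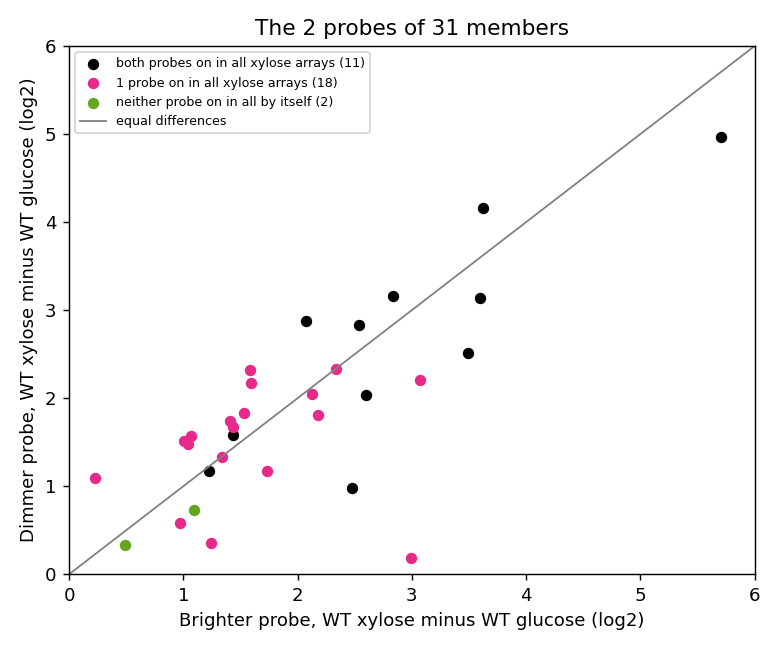
WT xylose minus WT glucose (log2) for the dimmer probe (vertical) against the brighter probe (horizontal) of the 31 members with 2 probes, coloured by how many probes were on in all xylose arrays. All 31 dimmer probes are above 0, which the choice of members favours. The point at 2.99 and 0.18 is cut01g0030489.

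Requiring every probe of a design ID to be on in all 5 xylose arrays, with no probe on in glucose, leaves 32 of the 52, 11 of them with 2 probes. Counting a design ID as on only where all its probes are, in glucose too, gives 64 transcripts that include the same 32, since it also lets in IDs with 1 probe on in glucose. The 6 transcripts with the largest bounds are among these 32. Of the 20 that drop out, the highest mean level in WT on xylose was -7.62.

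Members followed each other directly in the numbering in 2 pairs. The first is cut01g0040372 and cut01g0040373. The level of cut01g0040372 was -8.26 and -8.09 in TMS174, -7.72, -8.48 and -7.80 in WT on xylose and -10.1, -10.3 and -9.50 in WT on glucose, and the strain ranges of both IDs overlapped. The second is cut01g3840001 and cut01g3840002, which are the only 2 design IDs of their number group. The level of cut01g3840001 was -8.25 and -8.43 in TMS174, -7.76, -8.43 and -7.69 in WT on xylose and -8.99, -11.02 and -9.98 in WT on glucose. That of cut01g3840002 was -8.21 and -8.30 in TMS174, -7.54, -7.60 and -7.54 in WT on xylose and -9.06, -10.7 and -9.12 in WT on glucose. Both were lowest on WT glucose replicate 2. The strain ranges overlapped for cut01g3840001 and not for cut01g3840002.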

How the data were processed

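RNA of 8 samples was measured on one-colour Agilent arrays. The deposited intensities are the scanner's processed signals (background-subtracted, linear), with spot and background intensities and flags per spot; the file headers name Agilent Feature Extraction 9.5.3.1 as the software. The deposited value table holds each processed signal as a ratio to a number per array, as a comparison with the scanner values showed; no source gives the authors' reason for that number.

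Control spots were left out, processed signals were divided by each array's 75th percentile, log2 was taken, and probes were averaged per design ID. A design ID was on where 1 probe was flagged well above background. No p-value is offered as support for the members, since the rule used every group, and their calls are printed as a description only. limma 3.58.1 (R 4.3.3; lmFit and eBayes over all 8 arrays, 5 residual degrees of freedom, probes on in at least 2 arrays, outlier spots left out, Benjamini-Hochberg adjustment) gave standard errors and the shares called over all design IDs, and was tested on simulated data. The members and lists were chosen with earlier results of these data known.

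Named are the 6 members with the largest bound over glucose in WT, the 3 highest and 3 lowest strain differences, runs of consecutive numbers (2 exist), the 2 members and 2 other design IDs nearest the limit, the 2 with the widest spread in WT on xylose and the 2 brightest. None of the design IDs (0 matches) was found in the RefSeq gene table of assembly Cybja1, so the pathway lists could not be used. Alternatives were quantile, median and spike-in scaling, the deposited table, normexp (offset 50, on median spot and mean background signals), other detection rules, other fits, and leaving out each array. The number of arrays limits the precision. Same-numbered replicates had weakly related deviations, with r of 0.02, 0.18 and 0.08 between WT on xylose and on glucose. Unlike numbers there gave -0.215 to 0.122. Between the strains on xylose r was -0.07 and -0.17, but deviations of 2 TMS174 arrays mirror each other by construction. The numbers were not taken to pair samples, although these values cannot exclude a pairing.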

Additional observations from a re-analysis of the deposited data

How the results depend on the processing

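The rule gave 48 to 71 transcripts when 1 array was left out, and 35 to 71 under the other scalings (35 under spike-in scaling, chosen after seeing the data, and 71 under normexp). Without the limit on the strain difference it gave 80, with 1 glucose array allowed on 89, and with glucose judged by the looser flag, also added after seeing the data, 1. It gave 64 with all probes required to be on (32 of the 52 among them) and 37 with a limit of -0.5. The median strain difference (TMS174 minus WT on xylose, -0.29) was 0.18 under quantile normalization, 0.021 under normexp and -0.84 under spike-in scaling, and -0.42 to -0.24 without 1 array. The median level in WT on xylose (-7.84) was -8.07 under quantile normalization, -6.16 under median scaling, -5.41 under normexp and -5.88 under spike-in scaling, each relative to its own zero point, and -7.96 to -7.69 without 1 array. The median log2 bound of WT on xylose over WT on glucose (0.81) was 0.46 under quantile normalization, 0.14 under normexp and 1.22 under spike-in scaling, and 0.74 to 0.97 without 1 array. The cause of these shifts was not tested.

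Over all design IDs, limma called 1392 between the strains (583 higher and 809 lower in TMS174), 710 higher and 533 lower under quantile normalization, 788 and 681 under median scaling, 819 and 579 under normexp, and 83 and 4329 under spike-in scaling (4412 in all). Array weights gave 2728 calls. Leaving out 1 array gave 314 to 2039, with 314 and 357 without TMS174 replicate 2 and 1, and 576 and 623 without WT xylose replicate 3 and 1. With the replicate number as a replicate block 747 were called, 5 of them members, and 44 and 48 members were called higher in TMS174 and in WT on xylose over WT on glucose, beside 2191 and 2686 called higher over all tested design IDs. A slide block could not be fitted, since slide 2 holds TMS174 alone. On xylose, signal close to background limits the levels of all members but cut01g0010758. On glucose it limits the levels of all members, cut01g0010758 included. The spot intensities of cut01g0010758 on the WT glucose arrays were 39, 36.5 and 37.25.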

Other observations

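The array's design IDs carry a number whose digits before the last 4 form number groups. Groups above 7 hold 15 of the 52 transcripts (28.8%), against 21.8% of the 954 design IDs off in glucose and 10.0% of all design IDs. Of the 52, 40.4% have a single probe, against 70.2% of the 954 and 23.2% of all design IDs. What the number groups stand for is not stated in the labels or files.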
